A study of Mus musculus with 4 samples.

Results

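The genes described here are 10 components of bone morphogenetic protein (BMP) signalling: the ligands *Bmp2*, *Bmp4*, *Bmp5* and *Bmp7*, the inhibitors *Nog* and *Bambi*, and the targets *Id1*, *Id2*, *Id3* and *Id4*. They were found by gene name among the 29924 gene names on the array, where 11 of the 39429 probes read them: *Bmp4* had 2 probes and every other gene 1. The probes of 9 of the 10 genes were bright enough to be tested, among 21042 genes tested in all. *Bambi* was the exception.

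To ask how loss of *Tbx2* from prosensory progenitors alters transcription before hair cells differentiate, cochlear ducts of E14.5 NMRI mouse embryos were profiled on 4 Agilent 2-colour arrays. Mutant embryos, *Sox2-Tbx2LOF*, carried *Sox2*(creERT2), a tamoxifen-dependent Cre recombinase inserted into *Sox2*, and *Tbx2*(fl/fl), 2 *Tbx2* alleles with *loxP* sites. The labels give the control genotype as *Tbx2*(fl/n.d.), and by the methods the controls lacked Cre. By the breeding scheme in the methods, mutants and their Cre-negative littermates alike bore 1 copy of the *R26* mTmG reporter. Dams of both groups had received a single oral dose of 4 mg tamoxifen at E12.5. Each array set 1 pool of mutant ducts against 1 pool of control ducts, so there were 4 pools per genotype, each made of many embryos. Arrays 1 and 2 held female pools and arrays 3 and 4 male pools. Dyes were swapped within each sex: Cy5 marked the mutant on arrays 1 and 3, and Cy3 did so on arrays 2 and 4. Cre acts only in cells that express *Sox2* and replaces 1 *Sox2* allele in the mutants alone, which the controls do not share, so *Tbx2* loss and the *Sox2* insertion cannot be told apart. The ducts were taken whole with the spiral ganglion removed, and cells that never recombined are read together with those that did. In such tissue fewer cells of a type and less RNA per cell cannot be told apart either.

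BMPs are secreted dimeric ligands of the TGF-beta family. They bind pairs of type I and type II receptor kinases, which phosphorylate SMAD1, SMAD5 and SMAD9. These bind SMAD4, enter the nucleus and switch on target genes, among which the *Id* genes are the most widely used readout. Noggin captures the ligands outside the cell, and BAMBI is a pseudoreceptor without a kinase domain that blocks receptor complexes. In the developing cochlea *Bmp4* marks the outer, non-sensory side of the duct, and BMP signalling takes part in setting the width of the prosensory domain. ID proteins bind E proteins and thereby hold back bHLH factors such as ATOH1, which starts hair cell differentiation.

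All values below are log2 ratios of mutant over control intensity, corrected for background and normalized within each array, or normalized log2 intensities of single pools. A gene was called changed at a Benjamini-Hochberg adjusted p below 0.05 over all genes tested in limma, with a term for the dye. By this rule 476 genes (2.26%) were higher and 615 (2.92%) lower in the mutant, together 5.18%, and 93 (0.442%) also changed at least 1.5-fold. Each array held 174979 spots, 157716 of them gene spots, and no gene spot was saturated. Probes had 4 spots each, and 8.29% to 8.56% of gene spots were left out as outliers. The ratio of many genes depended on the dye, with a dye effect called for 13.3% of genes. Before removal of the dye effect, the mutant over control ratios of the tested genes were alike only between arrays of the same dye direction. Their Pearson correlation was 0.68 between arrays 1 and 3 and 0.62 between arrays 2 and 4. Between arrays of opposite dye direction it was only −0.10 to 0.071. *Tbx2* itself had log2 ratios of −0.25, −0.053, −0.13 and −0.031 on arrays 1 to 4. It was lower on 4 of 4 arrays, at −0.12 ± 0.098 (SD, n = 4; limma SE 0.036, adjusted p = 0.124), so a lower *Tbx2* level in whole ducts did not pass the test. Whether its probe, at chr11:85655391-85655450 of mm9, lies in the *loxP*-flanked stretch was not analysed here.

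*Bmp2* was the 1 gene of the 9 tested that was called changed, and it was higher in *Sox2-Tbx2LOF* ducts. That is 11.1% of the tested members, next to 5.18% of all genes. None of the 9 was called lower, and none reached 1.5-fold. An unadjusted p below 0.05 in limma was found for 4 of the 9, next to 4258 of all 21042 genes. The median log2 ratio of the 9 genes was 0.026, compared with 0.0024 over all genes, and turned to −0.0030 with the arrays centred on their median in place of loess.

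**Figure D1:**
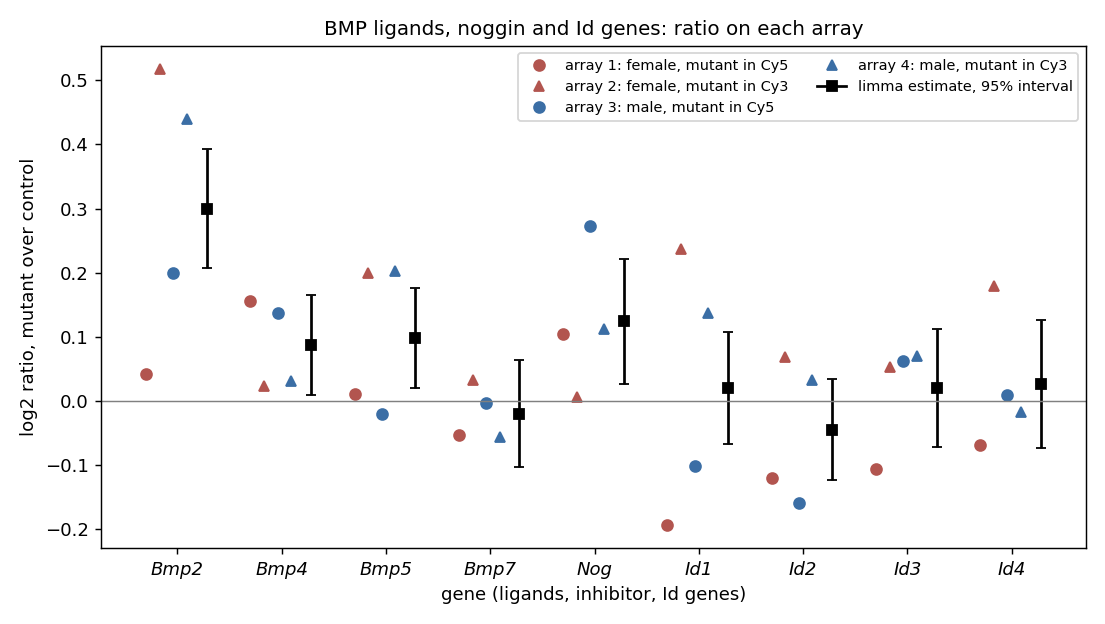
Log2 ratio of mutant over control (y axis) of the 9 tested genes (x axis) on each of the 4 arrays. Colour gives the sex of the pools and shape the dye of the mutant, and squares with bars give the limma estimate with its 95% interval. *Bmp2* lies above 0 on 4 of 4 arrays and its interval runs from 0.21 to 0.39, while *Id1* and *Id2* lie on opposite sides of 0 in the 2 dye directions.

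*Bmp2*, a ligand that also acts in bone, heart and limb, was read by a probe at chr2:133388260-133388319 of mm9. Its normalized log2 intensity in the mutant pools of arrays 1 to 4 was 10.53, 10.89, 10.71 and 10.80. In the control pools of the same arrays it was 10.48, 10.37, 10.51 and 10.36. Every mutant pool thus lay above every control pool, although the mutant pool of array 1 and the control pool of array 3 were nearly level. Such a separation was seen upwards for 1.74% and downwards for 2.54% of all genes. The log2 ratios on arrays 1 to 4 were 0.042, 0.52, 0.20 and 0.44, a mean of 0.30 ± 0.22 (SD, n = 4). In limma this was a 1.23-fold higher level (SE 0.040 on the log2 scale, adjusted p = 0.00609), and *Bmp2* stood 128th in size among the 476 genes called higher.

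The spread of the *Bmp2* ratios followed the dyes. With the mutant in Cy5 the mean log2 ratio was 0.12 and with the mutant in Cy3 it was 0.48, and the dye effect itself passed the test in limma (adjusted p = 0.0289). After removal of the fitted dye effect the ratios of the 4 arrays lay between 0.22 and 0.38, with an SD of 0.072. Without a dye term in the fit the adjusted p rose to 0.230. Without array 3 the log2 ratio was 0.26 and the adjusted p 0.0529, so the call then also fell away. Repeat spots of the probe on 1 array differed by an SD of only 0.019 to 0.037, less than the arrays differed from each other. The signal was 18.2 to 54.3 times the local background. The mean log2 ratio was 0.28 on the female and 0.32 on the male arrays, and the difference of −0.040 was not called (limma SE 0.091, adjusted p = 1.00).

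**Figure D2:**
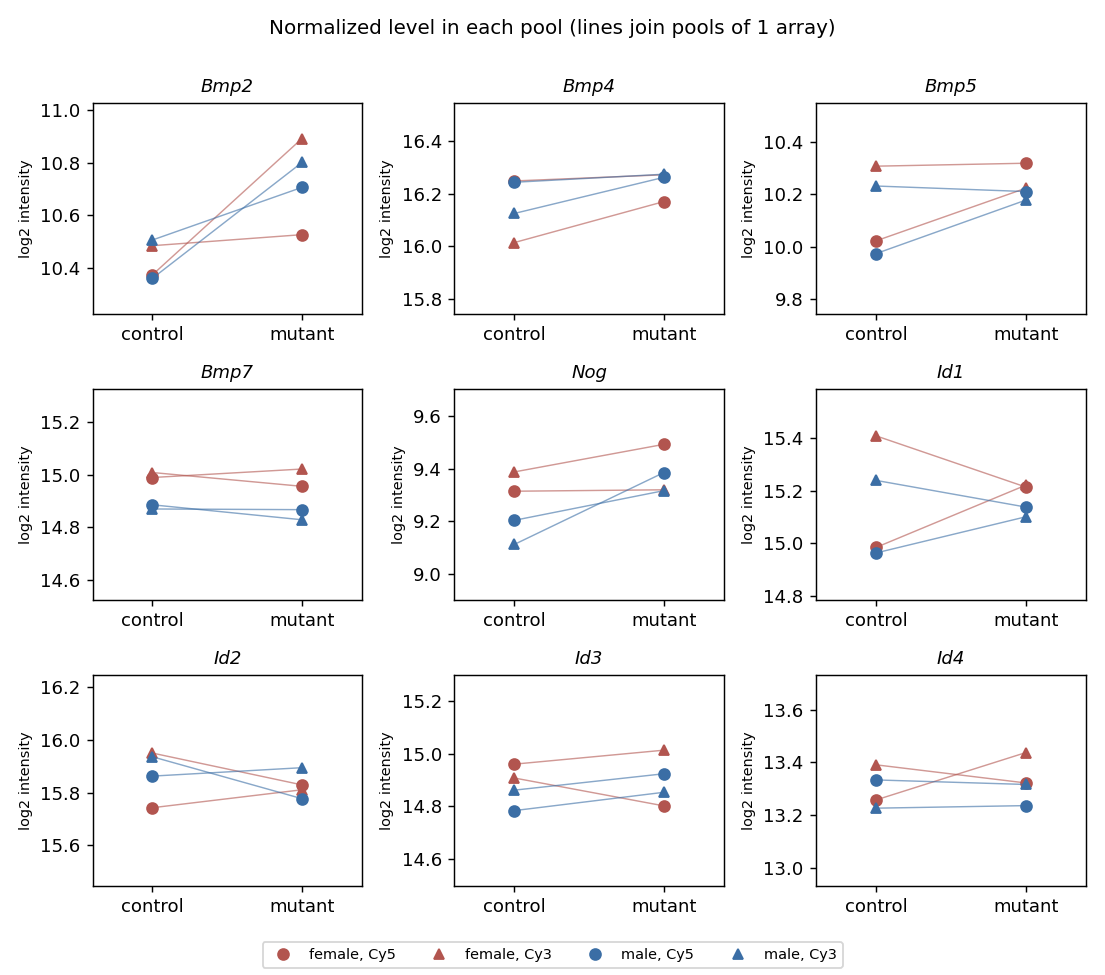
Normalized log2 intensity (y axis, each panel spans 0.8 log2 units) of the 9 tested genes in every pool, with control and mutant pools of 1 array joined by a line. Colour gives the sex and shape the dye of the pool. The panel of *Bmp2* is the 1 panel in which all mutant pools, from 10.53 upwards, lie above all control pools, which reach 10.51.

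*Bmp4*, the ligand of the outer side of the duct, was far brighter on its probe at chr14:47003391-47003450 of mm9, with a signal 1200 to 2310 times the local background. Its log2 intensity was 16.17, 16.27, 16.26 and 16.27 in the mutant pools and 16.01, 16.25, 16.12 and 16.24 in the control pools of arrays 1 to 4. The mutant pool was the higher one on all 4 arrays, but the groups overlapped. The log2 ratio of 0.087 ± 0.069 (SD, n = 4) was not called (limma SE 0.033, 95% interval 0.0091 to 0.16, adjusted p = 0.201). After removal of the dye effect, the 4 arrays lay between 0.078 and 0.096, and with median centring the ratio fell to 0.042. The second *Bmp4* probe, at chr14:47003198-47003257, was well above background in 0 of 8 measurements and gives no further value.

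*Bmp5*, a ligand of skeletal and cranial tissues, showed log2 ratios of 0.011, 0.20, −0.021 and 0.20 on arrays 1 to 4. Its higher values came from the arrays with the mutant in Cy3. Its log2 intensity ranged from 10.18 to 10.32 in the mutant and from 9.97 to 10.31 in the control pools, so that the groups overlapped. The mean of 0.098 ± 0.12 (SD, n = 4) was not called (limma SE 0.034, 95% interval 0.020 to 0.18, adjusted p = 0.155).

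*Bmp7*, which is broadly expressed in epithelia, had log2 ratios of −0.052, 0.032, −0.0026 and −0.057. The ranges of the pools overlapped, 14.83 to 15.02 in the mutant and 14.87 to 15.01 in the control. The mean of −0.020 ± 0.043 (SD, n = 4) had a 95% interval of −0.10 to 0.063 (limma adjusted p = 0.815), and without array 4 it was 0.0024.

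Of the inhibitors, *Nog* was measured and *Bambi* was not. *Nog* had log2 ratios of 0.10, 0.0054, 0.27 and 0.11 on arrays 1 to 4. These correspond to log2 intensities of 9.49, 9.32, 9.38 and 9.32 in the mutant and 9.39, 9.31, 9.11 and 9.20 in the control pools. The mutant pool was the higher one on 4 of 4 arrays, by very little on array 2, and the groups overlapped. The mean of 0.12 ± 0.11 (SD, n = 4) was not called (limma SE 0.042, 95% interval 0.026 to 0.22, adjusted p = 0.150). The female arrays averaged 0.055 and the male arrays 0.19, a difference of −0.14 with a limma SE of 0.083 (adjusted p = 1.00). The *Bambi* probe was well above background in 0 of 8 measurements, with a signal of 1.06 to 1.56 times the local background, so no ratio can be given.

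The *Id* genes were all brightly measured. The promoters of 3 of them, those with a listed promoter, are shown here and were searched for short motifs that SMADs and T-box factors can bind. The RefSeq promoter table (GRCm38.p6) listed 5 of the 10 genes, *Bmp4*, *Bmp5*, *Id2*, *Id3* and *Id4*. Printed are the 250 bases before the transcription start, on the strand of the gene, at chr12:25096093-25096342 (minus strand) for *Id2*, chr4:136143572-136143821 (plus strand) for *Id3* and chr13:48260866-48261115 (plus strand) for *Id4*. Capitals mark matches, on either strand, to GGCGCC, a GC-rich element bound by BMP-regulated SMADs, to CAGAC, the SMAD box, and to GGTGTG, the core that T-box factors such as TBX2 recognise.
*Id2*: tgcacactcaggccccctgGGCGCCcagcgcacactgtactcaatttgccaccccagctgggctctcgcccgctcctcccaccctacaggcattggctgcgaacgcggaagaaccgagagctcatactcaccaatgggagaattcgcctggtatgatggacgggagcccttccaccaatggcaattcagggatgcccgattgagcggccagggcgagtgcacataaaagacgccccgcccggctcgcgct
*Id3*: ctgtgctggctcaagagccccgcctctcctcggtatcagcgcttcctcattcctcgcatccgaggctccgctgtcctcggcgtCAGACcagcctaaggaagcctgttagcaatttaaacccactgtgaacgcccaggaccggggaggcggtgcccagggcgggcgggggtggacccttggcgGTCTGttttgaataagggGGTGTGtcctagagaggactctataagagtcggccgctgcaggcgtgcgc
*Id4*: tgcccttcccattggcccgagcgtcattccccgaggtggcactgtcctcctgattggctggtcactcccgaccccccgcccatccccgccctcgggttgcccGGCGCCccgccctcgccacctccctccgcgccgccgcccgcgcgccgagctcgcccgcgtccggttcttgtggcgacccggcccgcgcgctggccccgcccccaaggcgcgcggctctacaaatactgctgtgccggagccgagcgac
GGCGCC occurred once each in *Id2* and *Id4*, 231 and 148 bases before the start. *Id3* held CAGAC in both orientations, beginning 167 and 68 bases before the start, and GGTGTG beginning 50 bases before it. In windows of this length, GGCGCC was found in 9.59%, CAGAC in 42.2% and GGTGTG in 16.3% of the 32851 listed promoters. Of the ligand promoters, that of *Bmp5* held CAGAC and that of *Bmp4* none of the 3 motifs. A match is a match of letters and no measure of binding.

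None of the 4 *Id* genes was called changed in limma, and none had an unadjusted p below 0.05. Their median log2 ratio was 0.020. It fell to −0.0097 with median centring, so the *Id* genes as a group had no direction that held under both scalings. The 95% intervals of the 4 genes together ran from −0.12 to 0.13.

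*Id1*, the most direct readout of BMP SMADs in many cells, had log2 ratios of −0.19, 0.24, −0.10 and 0.14 on arrays 1 to 4. Its log2 intensity was 15.21, 15.22, 15.14 and 15.10 in the mutant and 15.41, 14.98, 15.24 and 14.96 in the control pools. The sign followed the dye: the pool labelled with Cy3 was the brighter one on all 4 arrays, and the dye effect was called (limma adjusted p = 0.0290). With the dye effect removed, the arrays lay between −0.030 and 0.069, around a mean of 0.019 ± 0.20 (SD of the unadjusted ratios, n = 4; limma SE 0.038, 95% interval −0.068 to 0.11, adjusted p = 0.828). The sign of this mean turned with median centring (−0.0030).

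*Id2*, which is also expressed in non-sensory epithelium and mesenchyme, had log2 ratios of −0.12, 0.068, −0.16 and 0.032. Here too the Cy3-labelled pool was the brighter one on every array. The mutant pools, from 15.78 to 15.90, lay within the control range of 15.74 to 15.95. The mean of −0.045 ± 0.11 (SD, n = 4) was not called (95% interval −0.12 to 0.034, limma adjusted p = 0.526).

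*Id3* had log2 ratios of −0.11, 0.053, 0.062 and 0.070. Array 1 was the 1 array with a lower mutant pool. Mutant pools ranged from 14.80 to 15.01 and control pools from 14.78 to 14.96. The mean of 0.020 ± 0.084 (SD, n = 4) was not called (95% interval −0.073 to 0.11, limma adjusted p = 0.836) and turned to −0.015 with median centring.

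*Id4*, the member of the family known best from neural progenitors, had log2 ratios of −0.069, 0.18, 0.0097 and −0.017. Apart from array 2 the pools of an array were nearly level. Mutant pools ranged from 13.24 to 13.44 and control pools from 13.23 to 13.39. The mean of 0.026 ± 0.11 (SD, n = 4) was not called (95% interval −0.074 to 0.13, limma adjusted p = 0.797) and was −0.0048 with median centring.

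*Bmp2* was next compared with the 8 other tested members on the same arrays, a comparison chosen after its ratio had been seen. Its log2 ratio exceeded that of *Bmp5*, *Bmp7* and all 4 *Id* genes on 4 of 4 arrays, that of *Bmp4* on 3 and that of *Nog* on 2. The difference was steadiest against *Id1*, whose ratios shifted with the dye as those of *Bmp2* did, at 0.28 ± 0.031 (SD, n = 4). With 4 arrays a two-sided exact permutation test by sign changes cannot go below p = 0.125, and after adjustment over the 8 pairs the values were 0.167 for 6 pairs, 0.429 for *Bmp4* and 0.50 for *Nog*, so none of these differences passed. With the fitted dye effects removed, *Bmp2* had the larger ratio on 4 of 4 arrays in all 8 pairs, by 0.083 to 0.27 against *Nog* and by 0.25 to 0.31 against *Id1*. These counts are no further test, because *Bmp2* was picked as the member with the largest ratio. The 4 adjusted ratios of a gene are also not independent, since the genotype and dye terms leave 2 residual degrees of freedom.

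Beyond the 10 genes, 63 further genes of the pathway were listed by role, of which 57 were tested. Changed were 4 of the 57 (7.02%, next to 5.18% of all genes), 3 higher and 1 lower, and none reached 1.5-fold. The median log2 ratio of the list was 0.029. Calls fell on 1 of 10 other ligands and 3 of 8 further targets. In limma 0 of 11 receptors and co-receptors, 0 of 17 secreted inhibitors and modulators and 0 of 11 SMADs and SMAD regulators were called. Of these, 3, 5 and 0 had an unadjusted p below 0.05, as did 4258 of all 21042 genes. These counts rest on the brightest probe of each gene. With the mean over tested probes the receptor *Acvr2a* was called lower, at −0.25 (limma adjusted p = 0.0107). It was also called lower with median centring (−0.28, limma adjusted p = 0.0187) and without array 4 (−0.34, limma adjusted p = 0.0201). *Chrdl1*, of the inhibitors and modulators, was called higher with the mean over tested probes, at 0.18 (limma adjusted p = 0.0222). In the reported fit, on their brightest probes, *Acvr2a* and *Chrdl1* stood at −0.27 and 0.11 (limma adjusted p = 0.0544 and 0.164). Both were named after their values were seen.

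**Figure D3:**
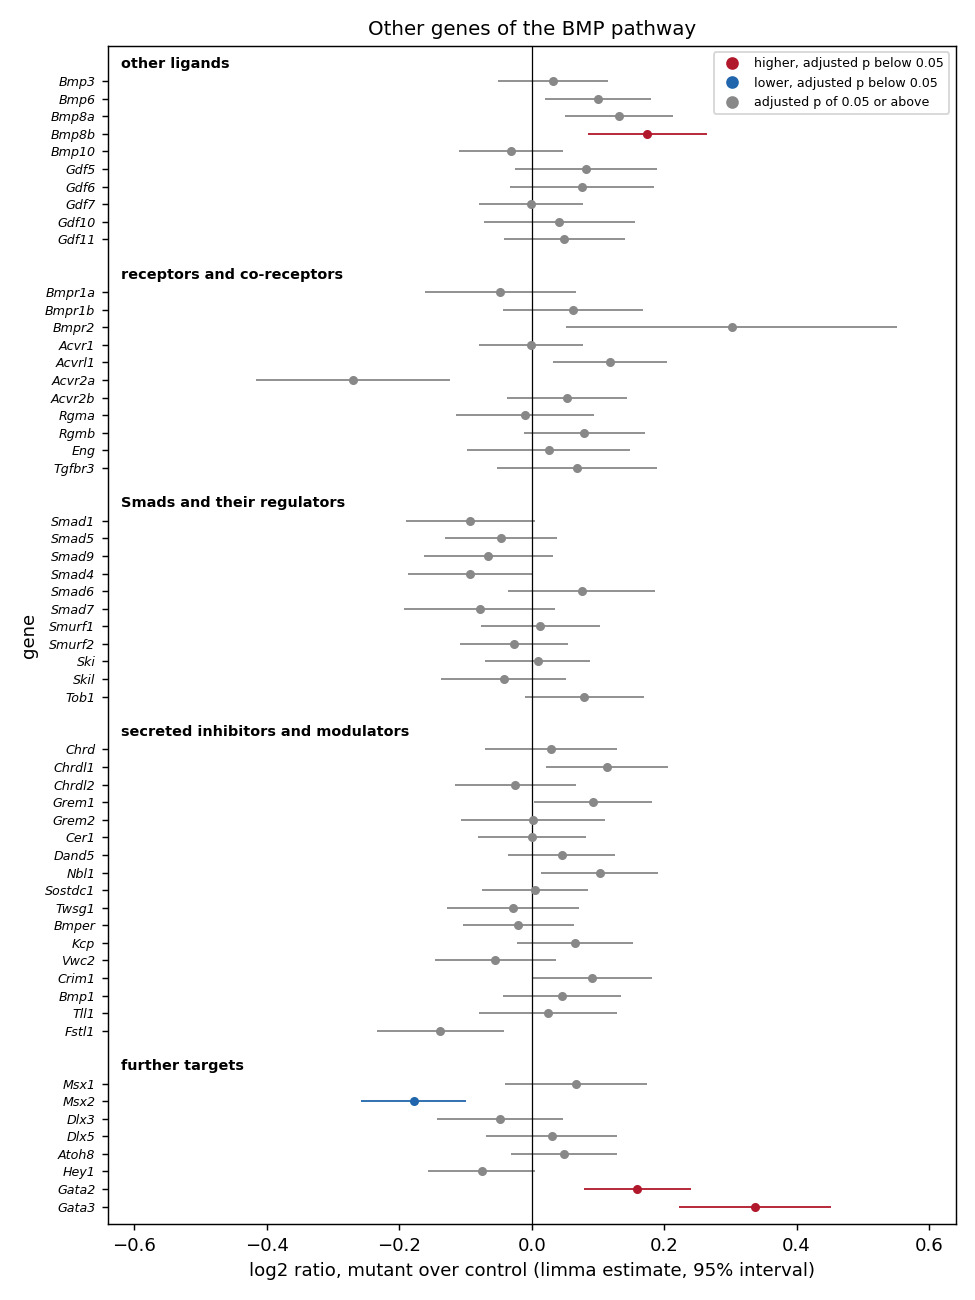
Log2 ratio of mutant over control (x axis, limma estimate with 95% interval) of the 57 tested pathway genes, grouped by role. Red marks genes called higher, blue genes called lower and grey all others. *Gata3* at 0.34, *Bmp8b* at 0.17 and *Gata2* at 0.16 are red, *Msx2* at −0.18 is blue, and no receptor, inhibitor or SMAD is coloured.

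Of the 3 genes called higher, *Gata3*, a zinc finger factor needed for prosensory development, had the largest ratio. Its log2 intensity was 16.51, 16.38, 16.45 and 16.32 in the mutant and 16.22, 16.19, 15.98 and 15.92 in the control pools of arrays 1 to 4. The groups did not overlap. Its mean ratio of 0.34 ± 0.13 on the log2 scale (SD, n = 4) was called (limma SE 0.049, adjusted p = 0.00929). This call was lost under 4 of 14 other settings, among them the omission of array 3 (limma adjusted p = 0.0912) and Agilent's processed signals (limma adjusted p = 0.0559).

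*Gata2*, a related factor of the outer side of the duct, rose by 0.16 ± 0.052 (SD, n = 4; limma adjusted p = 0.0429) and was higher on 4 of 4 arrays. *Bmp8b*, a ligand best known from germ cells and brown fat, rose by 0.17 ± 0.24 (SD, n = 4; limma adjusted p = 0.0460) and was higher on 3 of 4. *Msx2*, a homeobox gene that BMPs induce in many tissues, fell by 0.18 on the log2 scale (SD 0.18, n = 4; limma adjusted p = 0.0279) and was lower on 3 of 4 arrays. The ratios of *Bmp8b* and *Msx2* followed the dye. With the mutant in Cy5 *Bmp8b* had log2 ratios of 0.44 and 0.31 and in Cy3 of 0.024 and −0.075 (dye effect, limma adjusted p = 0.0197). *Msx2* had −0.047 and 0.0011 with the mutant in Cy5 and −0.32 and −0.34 in Cy3 (dye effect, limma adjusted p = 0.0273), and without a dye term its adjusted p in limma was 0.457 and that of *Bmp8b* 0.594. *Msx2* and *Gata3*, both listed as targets, thus went in opposite directions. All 3 calls sat near the threshold: those of *Gata2* and *Bmp8b* were lost under 10 and that of *Msx2* under 8 of 14 other settings, including the omission of any single array for each of the 3 genes. Whether the *Bmp8b* probe also reads its close relative *Bmp8a* was not tested.

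Among the receptors, *Bmpr1a* and *Bmpr1b*, the type I receptors, had log2 ratios of −0.047 and 0.062 (limma adjusted p = 0.656 and 0.509). A second *Bmpr1b* probe, not the brightest, had a mean of 0.15 ± 0.097 (SD, n = 4). *Bmpr2*, the type II receptor, had the same mean as *Bmp2*, 0.30, but with an SD of 0.54 between the arrays (n = 4; limma adjusted p = 0.171), and rested on single arrays: it was 0.47 and called without array 2 (limma adjusted p = 0.00370), and 0.20 and 0.13, not called, without array 1 and without array 4 (limma adjusted p = 0.465 and 0.532). The signal transducers *Smad1* and *Smad5* had ratios of −0.093 and −0.046, and the inhibitory SMADs *Smad6* and *Smad7*, which BMPs induce in many cells, 0.076 and −0.078. None of these 4 SMAD genes was called, with limma adjusted p between 0.270 and 0.543. Single arrays moved these small ratios widely: with 1 array left out they ran from −0.14 to −0.045 for *Smad1*, −0.076 to −0.017 for *Smad5*, 0.012 to 0.14 for *Smad6*, −0.15 to −0.0081 for *Smad7* and 0.017 to 0.11 for *Bmpr1b*, the extremes of the SMAD genes falling without arrays 1 and 3. The secreted inhibitors *Grem1* and *Chrd* stood at 0.093 and 0.029 (limma adjusted p = 0.228 and 0.764), and the homeobox target *Msx1* at 0.067 (limma adjusted p = 0.483).

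Marker genes of other cell types also differed between the groups. Of 8 tested neuronal markers 6 were lower and 1 higher, with *Tubb3* at −0.39, *Elavl4* at −0.36 and *Stmn2* at −0.41, and of 7 markers of Schwann cell precursors 3 were lower and 1 higher. Among the neuronal markers *Isl1*, at 0.20, was the gene called higher, and *Snap25*, at −0.026, was not called. The summed intensities of both lists, in which brighter markers weigh more, overlapped between the groups. For neurons they were 51030 to 57623 in the mutant and 52092 to 54633 in the control pools. For Schwann cell precursors they were 168946 to 195948 and 172093 to 202004. Such a sum does not show how many markers fell. *Neurod1*, a further neuronal marker, was too dim to be tested. Of 7 prosensory markers 3 were lower and 1 higher, with sums of 55589 to 62691 in the mutant and 61626 to 63964 in the control pools. The ranges overlapped, but the prosensory sum was lower in the mutant on 4 of 4 arrays.

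Periotic mesenchyme, the tissue around the duct, also expresses BMP genes and *Id* genes. Of 8 of its markers 1, *Col1a1* at 0.27, was called higher, and the median log2 ratio of the list was 0.062. *Col1a2* and *Twist1*, at 0.28 and 0.15, were higher on 4 of 4 arrays, and *Col3a1*, at 0.084, on 2 of 4. *Tbx18*, *Prrx1* and *Tbx15* stood at 0.040, 0.035 and 0.0089 and *Pou3f4* at −0.049. Apart from *Col1a1*, none of these markers was called. How much each of the 8 adds to their summed intensity was not analysed. The summed intensity of the 8 markers was 169864 to 190779 in the mutant and 147348 to 166192 in the control pools. The sum was thus higher in the mutant on 4 of 4 arrays, without overlap, as was the level of *Bmp2*. The sums of every other marker list overlapped between the groups. Of 7 epithelial markers 1 was lower, *Otoa*, and 6 were not called, and of 3 markers of the outer side of the duct, a list that itself holds *Bmp4* and *Gata2*, 1 was higher. The sum of these 3 was 95183 to 103637 in the mutant and 86523 to 100218 in the control pools, again higher in the mutant on 4 of 4 arrays, with overlap. It is no separate result, because it holds *Bmp4* and *Gata2*, each already given as higher on 4 of 4 arrays. *Lmo3*, the third marker, stood at −0.13, lower on 3 of 4 arrays and not called (limma adjusted p = 0.215). Its second probe stood at 0.037. In limma none of 5 melanocyte, 5 blood and 5 endothelial markers was called. Of them 1, 3 and 2 had an unadjusted p below 0.05, next to 4258 of all 21042 genes. The part of any of these cell types in the ratios of *Bmp2* or of the other genes was not tested.

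**Figure D4:**
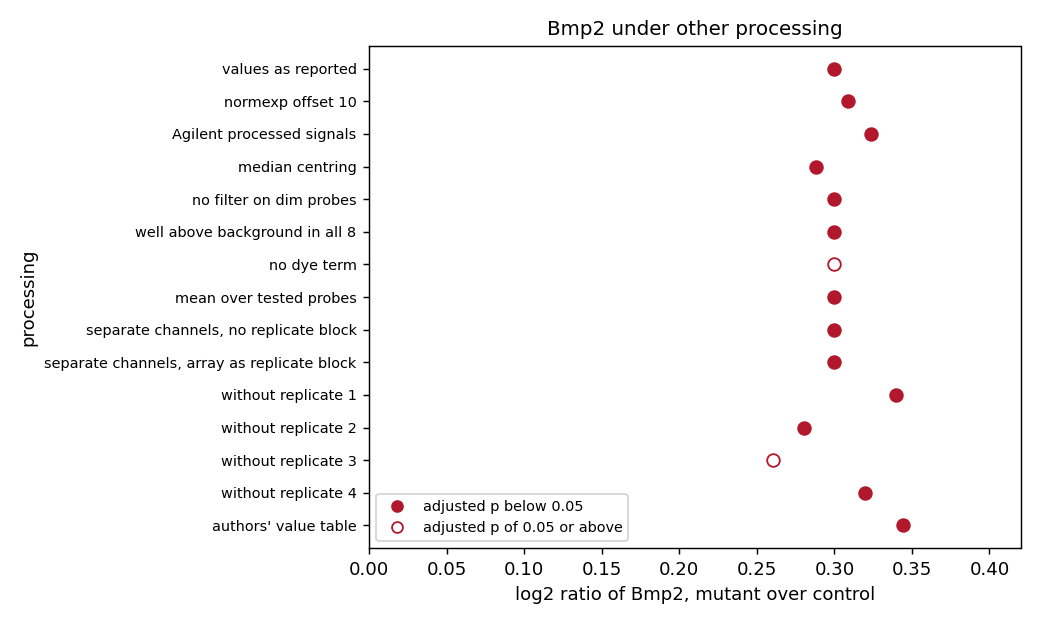
Log2 ratio of *Bmp2* (x axis) under the processing reported above and 14 other settings (y axis). Filled points have a limma adjusted p below 0.05 and open points do not; the ratio stays between 0.26 and 0.34, and the open points are the fit without a dye term and the fit without array 3.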

How the data were processed

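The authors scanned the arrays and deposited, per the file headers, intensity values of Agilent Feature Extraction 10.7.3.1: mean spot signal, median local background and processed intensity, in Cy3 and Cy5. They also deposited a table with a score per probe and array, read here as a fold change with the sign giving its direction and used as an alternative (r = 0.912 to 0.942 across probes with the ratios computed here, median log2 ratio 0 on each array); its normalization is not stated. All arrays lay on 1 slide. Probe positions (mm9) came from the files. Ratios were oriented by the dye labels.

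Spots were corrected with limma's normexp (offset 50), normalized by loess within arrays and averaged without outlier spots. A probe was tested if 4 or more of its 8 measurements were well above background. The brightest probe stood for its gene. Ratios were fitted with limma 3.58.1 in R 4.3.3 (genotype and dye terms, 2 residual and 5.65 prior degrees of freedom). Pools on 1 array are paired by hybridisation. SAM, which the methods name, was not run. A limma fit without the array, but with a dye term, stands for its unpaired comparison. The methods describe no dye term for SAM, and an unpaired fit without a dye term was not run. The steps were tested on simulated data, in which the share of false calls was above the nominal one, by how much depending on how the noise was drawn. With variances drawn from limma's fitted prior, most changes somewhat larger than those of the uncalled members were missed. A gene not called may therefore have changed. Members and lists were chosen with earlier results of these data known. Genes fixed in the design for examination by name were the members, *Tbx2*, *Sox2*, the pathway genes called changed with 10 others, and the first 3 markers of each list. Not all of these are given with values. The text also names genes outside this set, among them *Acvr2a*, *Chrdl1* and further markers such as *Isl1*, *Otoa* and *Col1a1*. The labels call the pools separate. The limma p-values rest on the spread between 4 arrays left after the dye term, pooled with a variance fitted over all genes. With 2 residual and 5.65 prior degrees of freedom, the fitted variance has the larger weight. They are thus no direct measure of the SDs given beside them, and the number of arrays limits the precision.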

Additional observations from a re-analysis of the deposited data

Results flagged for a closer look

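In 3 of 49 results with 4 arrays, 1 array stood apart from the others by Dixon's test, which flags about 5% of such groups by chance. For *Id3* this was the log2 ratio of −0.11 on array 1, with the other arrays between 0.053 and 0.070. For *Msx1* it was 0.26 on array 3, with the others between −0.00043 and 0.0067. For *Sox2*, the gene that carries the insertion, it was −0.26 on array 3, with the others between 0.078 and 0.14, around a mean of 0.012 (limma adjusted p = 0.935).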

How the results depend on the processing

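The *Bmp2* ratio was above 0 under every setting run and lost its call under 2: without a dye term (0.30, limma adjusted p = 0.230) and with each array left out, where it ranged from 0.26 to 0.34 and the adjusted p passed 0.05 only without array 3 (0.0529). Among its other settings the highest adjusted p was 0.0436, with the authors' value table. The number of members called higher was accordingly 0 without a dye term and 0 to 1 with an array left out. In the fit of single pools with the array as replicate block the ratio and its adjusted p were those reported. With no replicate block, the unpaired comparison with the dye term kept, the adjusted p of *Bmp2* in limma was 0.0395. Over all genes 82 were then higher and 135 lower, and of the pathway list 0 higher and 0 lower.

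Over all genes the counts of higher and lower genes were 236 and 380 with Agilent's processed signals, 90 and 174 without a dye term, 157 and 257 with the value table, and 122 to 635 and 231 to 643 with an array left out. Without array 1 they were 122 and 289, without array 3 214 and 231, without array 4 339 and 356. Of the pathway list, 1 was higher with a normexp offset of 10, 1 with median centring, 1 without a dye term, 0 with processed signals and 0 with the value table, and 0 to 2 with an array left out. With the mean over probes 4 of the list were higher, *Chrdl1* among them. Lower were 2 with median centring and 2 with the mean over probes, in both cases *Msx2* and *Acvr2a*, a gene named after its values were seen. None was lower with processed signals, without a dye term and with the value table, and 0 to 1 with an array left out. That 1 was *Acvr2a*, without array 4. Of the marker genes 3 were higher with an offset of 10, 2 with processed signals, median centring or the value table, 1 without a dye term, 1 with no replicate block and 2 to 6 with an array left out, next to 5 as reported. Genotype by sex gave 0 genes (558 at an unadjusted p below 0.05 in limma) and 19 with median centring.

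The sign turned for several genes near 0, none of them called. With median centring this held for *Id1* (−0.0030), *Id3* (−0.015), *Id4* (−0.0048), *Sox2* (−0.017), *Epcam* (−0.0033) and *Sox10* (−0.031), and with the mean over probes for *Tyr* (−0.0057). With an array left out the ratio ran from −0.042 to 0.0024 for *Bmp7*, −0.0053 to 0.044 for *Id1*, −0.022 to 0.062 for *Id3*, −0.023 to 0.075 for *Id4*, −0.073 to 0.096 for *Sox2*, −0.12 to 0.023 for *Bmpr1a*, −0.022 to 0.080 for *Chrd*, −0.056 to 0.097 for *Epcam*, −0.015 to 0.035 for *Sox10*, −0.031 to 0.010 for *Mitf*, −0.0090 to 0.089 for *Tbx18* and −0.042 to 0.026 for *Pecam1*. The cause of these shifts was not tested. *Bambi* and the second *Bmp4* probe lay at the background, which limits what can be said of them, and each fit with an array left out has 1 residual degree of freedom before moderation.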
